A study of Homo sapiens with 12 samples.

Results

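The long non-coding genes that host small nucleolar RNAs (snoRNAs) were followed through RNA-seq libraries of HCT 116p53-/- cells, a human colon carcinoma line without p53, and of uL3ΔHCT 116p53-/- cells, its derivative made deficient in the ribosomal protein uL3. The genes were taken by name: GAS5, SNHG1, SNHG3, SNHG5, SNHG6, SNHG8, SNHG12, SNHG15, SNHG16 and ZFAS1, 10 of the 60617 genes in the deposited files, and all 10 were among the 15692 genes with enough counts to be tested. Both lines carry the genotype P53-/-, and the sample labels add RPL3 KO to the second, RPL3 being the gene of uL3. The study's text calls that line stably silenced and, in other places, depleted or deleted of uL3. Each line received vehicle or actinomycin D (Act D), which at low concentration inhibits RNA polymerase I, at 5 nM for 24 h, and each of the 4 groups had 3 libraries labelled as biological replicates. The design asks how the RNA of a cell with a disturbed nucleolus differs with and without uL3, and these host genes were read within it. By scaled counts RPL3 RNA was not lower in the second line, whereas per length it was lower (values below). The samples of that line are therefore called the libraries labelled uL3Δ throughout.

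snoRNAs guide the chemical modification and the processing of ribosomal RNA in the nucleolus. Most human snoRNAs are released from introns of longer transcripts after splicing, and box C/D snoRNAs direct ribose methylation whereas most box H/ACA snoRNAs direct pseudouridylation. Many hosts are genes of ribosomal proteins and translation factors. The non-coding hosts keep a spliced exonic RNA that is not known to make a stable protein, and for several of them, GAS5 being the classic case, this RNA starts with a run of pyrimidines (a 5′ terminal oligopyrimidine, or TOP, start), is loaded on ribosomes and is then removed by nonsense-mediated decay, a pathway that needs translation. GAS5, named for its accumulation in growth-arrested cells, is therefore known to respond to the rate of translation and to mTOR activity.

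The start sites are shown first, since the TOP start is the sequence feature by which these genes are known. The RefSeq promoter table, of build hg38, held 8 of the 10 genes, all but SNHG6 and SNHG15. Each line below gives 45 bases before the start and 30 from it on, 5′ to 3′ on the transcribed strand. Capitals mark a TATAAA or TATATA within the bases 40 to 21 before the start, and a C at the start followed by at least 4 bases that are each C or T. The windows are SNHG5 at chr6:85678704-85678778, minus strand, SNHG12 at chr1:28581844-28581918, minus strand, ZFAS1 at chr20:49278597-49278671, plus strand, SNHG1 at chr11:62855856-62855930, minus strand and SNHG16 at chr17:76557719-76557793, plus strand. For GAS5 the window stands at the start of its most abundant transcript (given with the transcripts below), chr1:173867960-173868034, minus strand, which lies 1056 bases downstream of the RefSeq start.
SNHG5: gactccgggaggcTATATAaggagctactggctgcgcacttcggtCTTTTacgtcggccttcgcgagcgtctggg
SNHG12: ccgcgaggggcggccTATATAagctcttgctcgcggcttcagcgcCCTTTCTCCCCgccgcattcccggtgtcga
ZFAS1: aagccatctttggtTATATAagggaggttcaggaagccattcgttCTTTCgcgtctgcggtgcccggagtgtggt
GAS5: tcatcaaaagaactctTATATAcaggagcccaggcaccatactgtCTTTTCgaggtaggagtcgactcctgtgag
SNHG1: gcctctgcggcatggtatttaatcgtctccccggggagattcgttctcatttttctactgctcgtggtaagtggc
SNHG16: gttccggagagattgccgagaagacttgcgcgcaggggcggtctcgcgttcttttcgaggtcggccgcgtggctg

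At the RefSeq starts, 3 of the 8 genes (SNHG5, SNHG12 and ZFAS1) had the pyrimidine start and the same 3 had the TATA-type element, all 3 as TATATA. The pyrimidine start was present in 4.07% of the 35116 promoters of the table, the TATA-type element in 3.02% and both together in 0.0797%. Only the transcribed strand was searched. The pyrimidine run was 11 bases long in SNHG12 and 5 in SNHG5 and ZFAS1. GAS5 held neither motif at the RefSeq start but both at the start of its most abundant transcript, with a run of 6 bases. The motifs depend on the exact base taken as the start. With the most abundant transcript's start used for all 10 genes, 4 had the pyrimidine start (GAS5, SNHG3, SNHG8 and SNHG12), 3 the TATA-type element (GAS5, SNHG12 and ZFAS1) and 2 both (GAS5 and SNHG12). SNHG5 and ZFAS1, whose starts then lie 15 and 2 bases upstream of the RefSeq ones, no longer had the pyrimidine start. SNHG1 and SNHG16 are printed as members without a match, and at the RefSeq starts SNHG3 and SNHG8 had no match either. Among the protein-coding hosts compared below 16 of 31 promoters had the pyrimidine start. These matches describe letters in a window and no binding or use of the start.

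The totals of the deposited RSEM expected counts were between 10087925 and 21138886 per library. Levels are given as CPM, counts scaled to a common library size after normalization with edgeR's TMM method, in the order of the replicate numbers. The TMM factors were 1.026 to 1.148 in HCT 116p53-/- libraries and 0.847 to 0.987 in those labelled uL3Δ, so that the scaling itself differed between the lines. RPL3 was at 1112 to 1151 CPM over the 6 HCT 116p53-/- libraries and at 1132 to 1337 CPM over the 6 labelled uL3Δ, and was called between the lines neither with vehicle (log2 fold change 0.13, edgeR adjusted p = 0.155) nor with Act D (0.12, 0.187), values that turned negative with scaling by library size alone. In the deposited TPM, a level per length without TMM scaling, RPL3 was lower in libraries labelled uL3Δ, without overlap. With vehicle it was at 720 to 826 TPM in HCT 116p53-/- libraries and at 545 to 641 TPM in those labelled uL3Δ. With Act D these ranges were 692 to 763 and 523 to 601 TPM. The lines also differed in cell type markers: the summed CPM of 10 epithelial markers was 2525 to 2879 in HCT 116p53-/- libraries and 1607 to 1999 in those labelled uL3Δ, and that of 10 mesenchymal markers 57.4 to 107 and 3622 to 4044. With vehicle, 6 of the 8 epithelial markers tested were lower in libraries labelled uL3Δ, CDH1 by 7.08 on the log2 scale, KRT18 was higher, and 7 of the 9 mesenchymal markers tested were higher, VIM by 6.67, and 1 lower. Every difference between lines below stands beside this divergence, and its part in the values of the host genes was not tested. In bulk RNA, fewer cells of a kind and less RNA per cell cannot be told apart.

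Levels of different genes were compared per length, in the deposited TPM, within libraries. In vehicle-treated HCT 116p53-/- cells SNHG16 (host of the SNORD1 box C/D snoRNAs) was at 201 ± 26.5 TPM and GAS5 at 189.8 ± 30.5 TPM (SD, n = 3 here and for each TPM below), and these most abundant members did not differ beyond their spread. SNHG6 followed at 158 ± 23.9 TPM, ZFAS1 at 129.7 ± 15.6, SNHG8 at 121 ± 17.2, SNHG1 at 88.2 ± 15.9, SNHG3 at 68.4 ± 15.7 and SNHG5 at 55.8 ± 8.80 TPM, and each of these overlapped the next in its range over libraries. SNHG15 (43.4 ± 3.39 TPM) and SNHG12 (38.8 ± 5.88 TPM) were below all others. In the vehicle-treated libraries labelled uL3Δ the order differed at the top: GAS5 stood at 496 ± 8.60 TPM, apart from ZFAS1 at 175 ± 11.4 TPM, and SNHG16 at 81.7 ± 12.5 TPM overlapped SNHG8 (103 ± 24.3 TPM) and SNHG5 (81.7 ± 12.8 TPM) in range. GAS5 made up 17.3% ± 0.680 of the summed TPM of the 10 genes in vehicle-treated HCT 116p53-/- libraries and 38.5% ± 1.12 in those labelled uL3Δ (SD, n = 3 each), and SNHG16 18.4% ± 0.643 and 6.31% ± 0.717. With Act D the shares were 17.6% ± 0.517 and 39.5% ± 1.71 for GAS5 and 18.7% ± 1.52 and 6.22% ± 0.595 for SNHG16, each within 1 SD of its value with vehicle. By mean TPM the bottom of the order was held by SNHG12 and SNHG15 in all 4 groups, SNHG15 reaching its lowest value, 16.1 ± 1.54 TPM, in the Act D-treated libraries labelled uL3Δ. In libraries labelled uL3Δ the range of SNHG3 overlapped both with vehicle (20.3 to 48.3 TPM) and that of SNHG12 with Act D (25.8 to 44.2 TPM). TPM rests on the length RSEM gives to each gene in each library, which for SNHG3 ran from 480.1 to 1636 effective bases, so that its place in the order rests on that assignment.

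**Figure D1:**
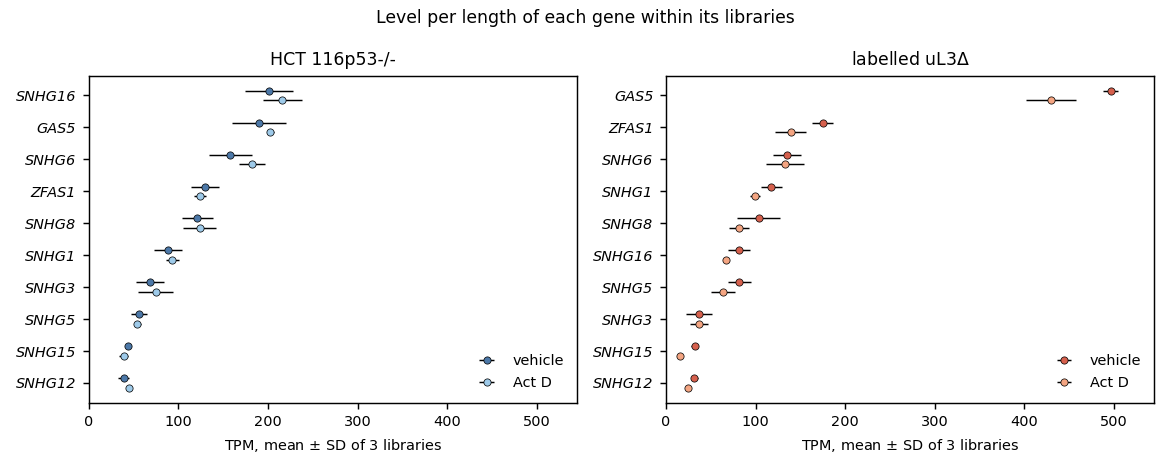
Deposited TPM of each member (x axis; points, mean of 3 libraries; bars, SD; darker points, vehicle; lighter points, Act D), in HCT 116p53-/- libraries on the left and libraries labelled uL3Δ on the right, ordered by the vehicle-treated mean. GAS5 is level with SNHG16 on the left and far above all other members on the right, where SNHG16 stands level with SNHG5 with vehicle.

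The lines were compared first with vehicle. Of the 10 host genes, 7 were higher and 1 lower in libraries labelled uL3Δ, by the quasi-likelihood test of edgeR after Benjamini-Hochberg adjustment over all genes with 0.05 as the threshold. Over all genes tested 35.1% were higher and 36.2% lower, so that most genes differed between these lines. The median log2 fold change of the members was 0.48 and that of all genes tested -0.021. No set test was made. The test reads counts, whereas TPM divides by the length RSEM gave each gene and carries no TMM scaling. In TPM with vehicle, SNHG3 (68.4 and 36.7), SNHG6 (158 and 135) and SNHG8 (121 and 103) had lower means in libraries labelled uL3Δ. The direction of these genes thus depended on the measure, and the other called members kept theirs. The uncalled SNHG12 (38.8 and 31.5) and SNHG15 (43.4 and 31.9) also had lower TPM means in libraries labelled uL3Δ.

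Among the hosts of box C/D snoRNAs, GAS5 (ENSG00000234741, chr1:173858559-173868882, minus strand, hg38) was at 164, 144 and 141 CPM in the 3 vehicle-treated HCT 116p53-/- libraries and at 423, 524 and 456 CPM in the 3 labelled uL3Δ. The groups were far apart, and GAS5 was 3.13-fold higher (log2 fold change 1.65, standard error 0.09, edgeR adjusted p = 1.8e-11), the largest difference of any member. ZFAS1 (chr20:49278178-49299600, plus strand), whose introns carry the SNORD12 snoRNAs, had 96.6, 89.9 and 82.5 CPM against 154, 191 and 171 CPM. It was 1.92-fold higher (log2 fold change 0.94, standard error 0.088, edgeR adjusted p = 2.88e-08). SNHG5 (chr6:85650491-85678932, minus strand), host of SNORD50A and SNORD50B, had 54.1, 49.8 and 51.7 CPM against 98.3, 109 and 93.6 CPM and was 1.93-fold higher (log2 fold change 0.95, standard error 0.092, edgeR adjusted p = 4.44e-08). SNHG1 (chr11:62851978-62855953, minus strand), an intron-rich host of a cluster of box C/D snoRNAs, had 174, 150.5 and 140.3 CPM against 209.7, 285 and 283 CPM, a difference of 0.74 on the log2 scale (edgeR adjusted p = 7.35e-06). All 3 libraries labelled uL3Δ were above the HCT 116p53-/- ones, though replicate 1 lay well below the others. SNHG6 (chr8:66920561-66926398, minus strand), host of SNORD87, had 83.1, 70.0 and 65.1 CPM against 89.0, 112 and 118 CPM (log2 fold change 0.55, edgeR adjusted p = 0.000252). SNHG16 (chr17:76557727-76670985, plus strand) went the other way. It had 567, 509 and 516 CPM in HCT 116p53-/- cells and 299.9, 309 and 317 CPM in libraries labelled uL3Δ, and was 1.72-fold lower (log2 fold change -0.78, standard error 0.081, edgeR adjusted p = 1.09e-07). It was the one member called lower, and no library of one line came near those of the other.

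The hosts of box H/ACA snoRNAs were read in the same way. SNHG8 (chr4:118278703-118285316, plus strand), which carries SNORA24, had 57.4, 52.3 and 53.02 CPM against 78.5, 73.5 and 63.9 CPM, a log2 fold change of 0.41 (edgeR adjusted p = 0.00107). SNHG3 (chr1:28505980-28510892, plus strand), host of SNORA73A and SNORA73B, had 63.9, 59.4 and 54.6 CPM against 55.3, 76.3 and 92.5 CPM. The groups overlapped, and the log2 fold change of 0.33 passed narrowly (edgeR adjusted p = 0.0367). It no longer passed without replicate 2 or 3 of either vehicle group (adjusted p 0.0721 to 0.291, the highest without replicate 3 labelled uL3Δ), with upper-quartile scaling (0.0566) or with only the groups compared in the fit (0.0594). SNHG15 (chr7:44983019-44986961, minus strand), host of SNORA9 and known as a short-lived transcript, had 50.3, 48.5 and 47.0 CPM against 50.9, 54.3 and 47.4 CPM. Its log2 fold change of 0.067 was not called, with a 95% interval of -0.12 to 0.26 (edgeR adjusted p = 0.544). SNHG12 (chr1:28578538-28583132, minus strand), which hosts snoRNAs of both classes, had 48.8, 52.1 and 41.7 CPM against 48.7, 51.7 and 54.0 CPM, and its 0.12 was not called either (95% interval -0.063 to 0.30, edgeR adjusted p = 0.265). With library size alone as the scaling, under which the all-gene median moved by -0.24 (log2), the test left 5 members higher and 1 lower: SNHG3 (adjusted p = 0.600) and SNHG8 (adjusted p = 0.198) were lost, and the uncalled differences of SNHG12 and SNHG15 turned negative.

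**Figure D2:**
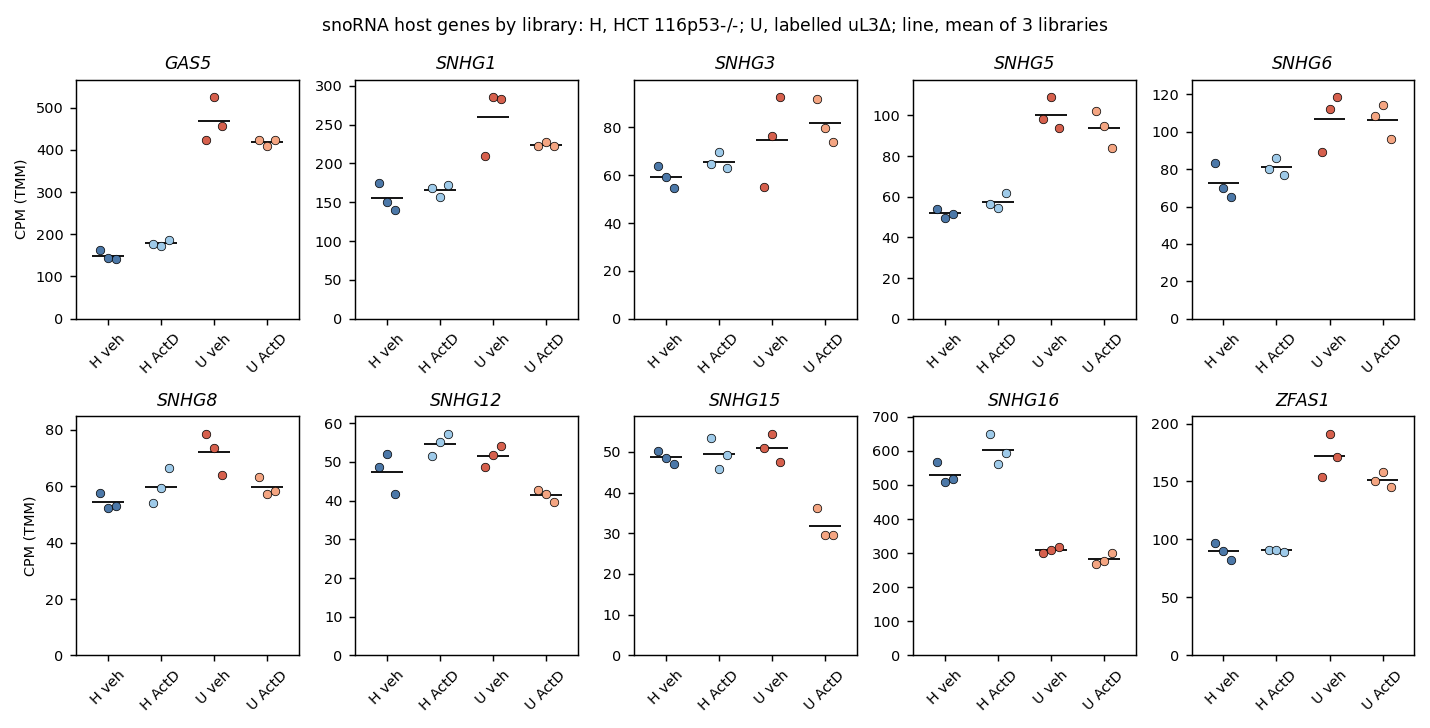
CPM (y axis, from 0) of each member in every library, with 3 points per group and a line at their mean; H veh and H ActD are HCT 116p53-/- cells with vehicle and Act D, U veh and U ActD the libraries labelled uL3Δ. GAS5, SNHG5 and ZFAS1 have all U libraries far above all H libraries, SNHG16 has them far below, and SNHG12 and SNHG15 have their lowest values in U ActD.

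With Act D in both lines, 6 of the 10 host genes were higher and 3 lower in libraries labelled uL3Δ by the same test, against 35.1% higher and 35.3% lower over all genes tested. The median log2 fold change was 0.35 over the members and -0.020 over all genes. GAS5 had 177, 172 and 187 CPM in Act D-treated HCT 116p53-/- cells and 422, 409 and 424 CPM in libraries labelled uL3Δ, and was 2.34-fold higher (log2 fold change 1.23, standard error 0.09, edgeR adjusted p = 1.11e-09). ZFAS1 (91.3, 91.2 and 89.4 CPM against 150.2, 158 and 145 CPM) and SNHG5 (56.2, 54.2 and 62.0 CPM against 102, 95.02 and 84.1 CPM) differed by 0.74 and 0.71 on the log2 scale. Neither gene's groups overlapped (edgeR adjusted p = 7.95e-07 and 2.32e-06). SNHG1 was at 168, 157 and 172 CPM and 222, 227 and 223 CPM (log2 fold change 0.43, edgeR adjusted p = 0.00164), and SNHG6 at 80.3, 86.1 and 77.1 CPM and 109, 114 and 96.2 CPM (0.39, edgeR adjusted p = 0.00501). SNHG3 was at 64.5, 69.6 and 62.8 CPM and 91.8, 79.7 and 73.7 CPM, and its 0.32 passed only just (edgeR adjusted p = 0.0475). That call was lost, with adjusted p between 0.0512 and 0.209, when any 1 of 10 of the 12 libraries was left out, all but vehicle-treated replicates 1 and 3 labelled uL3Δ. SNHG16 was again the member with the largest decrease. It had 649, 562 and 593 CPM in HCT 116p53-/- cells and 268, 277 and 301 CPM in libraries labelled uL3Δ, 2.13-fold lower (log2 fold change -1.09, standard error 0.082, edgeR adjusted p = 1.53e-09). SNHG15, not called with vehicle, was lower with Act D: 53.4, 45.8 and 49.1 CPM stood against 36.2, 29.5 and 29.7 CPM, a log2 fold change of -0.63 (edgeR adjusted p = 2.35e-05). SNHG12 likewise had 51.6, 55.2 and 57.2 CPM against 42.8, 41.8 and 39.7 CPM (-0.40, edgeR adjusted p = 0.00113), with no overlap for either gene. SNHG8, at 53.9, 59.2 and 66.4 CPM and 63.3, 57.3 and 58.4 CPM, showed a difference of -0.0008 with a 95% interval of -0.19 to 0.19 (edgeR adjusted p = 0.995). Under scaling by library size alone SNHG1, SNHG3 and SNHG6 were no longer called (adjusted p = 0.131, 0.640 and 0.290). In TPM with Act D, SNHG3 (74.5 ± 19.3 and 36.8 ± 9.72) and SNHG6 (182 ± 14.2 and 133 ± 21.1) had lower means in libraries labelled uL3Δ. For SNHG6 the ranges over libraries, 167 to 196 and 108 to 146 TPM, did not overlap. The other called members kept their direction in TPM.

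The response to Act D was then read within each line. In HCT 116p53-/- cells it was small for every member: fitted log2 fold changes ran from 0.015 for ZFAS1 to 0.26 for GAS5 (those of ZFAS1, SNHG1 and SNHG15 turned negative with scaling by library size alone), with a median of 0.15 against 0.018 over all genes tested. GAS5 alone passed, from 164, 144 and 141 CPM to 177, 172 and 187 CPM, a rise of 0.26 on the log2 scale (standard error 0.089, edgeR adjusted p = 0.0491). Thus 1 of 10 members was higher and 0 were lower, where 7.59% of all genes tested were higher and 11.1% lower. With an unadjusted p under 0.05 the members numbered 3 higher and 0 lower, and DESeq2 called 1 higher and 0 lower. The rise of GAS5 was at the edge of the threshold. Its adjusted p was 0.31 with scaling by library size alone and 0.0925 with no filter on low counts. Leaving out any 1 of 8 of the 12 libraries gave 0.0519 to 0.168: all 3 Act D-treated and replicates 2 and 3 of vehicle-treated HCT 116p53-/- cells, and of those labelled uL3Δ, Act D-treated replicates 1 and 3 and vehicle-treated replicate 3. For SNHG12 and SNHG16 the uncalled changes were 0.20 and 0.18 (edgeR adjusted p = 0.143 and 0.134), with 95% intervals of 0.022 to 0.38 and 0.023 to 0.34. The other 7 had adjusted p of 0.307 or more, and their intervals included 0.

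Of the 10 host genes, Act D lowered 2 and raised 0 in libraries labelled uL3Δ, against 8.4% lower and 3.51% higher over all genes tested. The members' median log2 fold change was -0.17 and that of all genes 0.029. SNHG15 had 50.9, 54.3 and 47.4 CPM with vehicle and 36.2, 29.5 and 29.7 CPM with Act D. The groups did not overlap, and SNHG15 was 1.59-fold lower (log2 fold change -0.67, standard error 0.10, edgeR adjusted p = 0.00025). This call was kept in each of the 23 alternative analyses, with adjusted p up to 0.00185. SNHG12 went from 48.7, 51.7 and 54.0 CPM to 42.8, 41.8 and 39.7 CPM, again without overlap, a log2 fold change of -0.31 (standard error 0.094, edgeR adjusted p = 0.0392). Its call was lost with upper-quartile scaling (adjusted p = 0.0967) and when 1 of 7 of the 12 libraries was left out, with adjusted p between 0.0518 and 0.112. Those were the 3 Act D-treated libraries labelled uL3Δ, replicates 2 and 3 of the vehicle-treated ones, and Act D-treated replicates 1 and 2 of HCT 116p53-/- cells. Of the others, SNHG8 came closest, from 78.5, 73.5 and 63.9 CPM to 63.3, 57.3 and 58.4 CPM (-0.27, 95% interval -0.46 to -0.076, edgeR adjusted p = 0.0874), and it passed when vehicle-treated replicate 3 labelled uL3Δ was left out (adjusted p = 0.037). SNHG1, from 209.7, 285 and 283 CPM to 222, 227 and 223 CPM, had -0.21 (edgeR adjusted p = 0.23) and passed without vehicle-treated replicate 1 (adjusted p = 0.020), the lowest of its group. GAS5 had 423, 524 and 456 CPM with vehicle and 422, 409 and 424 CPM with Act D, a change of -0.16 (95% interval -0.33 to 0.012, edgeR adjusted p = 0.271). The fitted changes of the remaining 5 lay between -0.19 for ZFAS1 and 0.13 for SNHG3, none of them called. At an unadjusted p under 0.05 the members numbered 0 higher and 4 lower, and DESeq2 called 0 higher and 2 lower.

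Whether the response to Act D differed between the lines was tested as an interaction, the log2 fold change by Act D in libraries labelled uL3Δ minus that in HCT 116p53-/- cells. It was negative and past the threshold for 2 of the 10 members and positive for 0, against 3.23% lower and 3.3% higher over all genes tested. SNHG15 differed by -0.70 (standard error 0.14, edgeR adjusted p = 0.00609) and SNHG12 by -0.51 (standard error 0.13, edgeR adjusted p = 0.0266). In CPM, SNHG15 was at a like level in the other 3 groups, between 45.8 and 54.3 CPM in all 9 libraries, and at 36.2, 29.5 and 29.7 CPM in the fourth. In TPM it was already lower with vehicle in libraries labelled uL3Δ, at 29.7 to 36.4 against 39.8 to 46.6 in HCT 116p53-/- cells. For SNHG12 the Act D-treated HCT 116p53-/- libraries (51.6, 55.2 and 57.2 CPM) were the highest on average and the Act D-treated libraries labelled uL3Δ the lowest. The call of SNHG12 did not hold without vehicle-treated replicate 3 of either line or without Act D-treated replicate 2 or 3 of HCT 116p53-/- cells (adjusted p 0.054 to 0.0631). GAS5 stood just outside the threshold at -0.42 (edgeR adjusted p = 0.0522, 95% interval before adjustment -0.67 to -0.18). It passed in 6 of 10 other alternatives, among them DESeq2 (adjusted p = 0.0176) and the likelihood-ratio test (0.0315), and without vehicle-treated replicate 1 of either line (0.0204 and 0.033). SNHG8 (-0.41) and SNHG16 (-0.31) did not pass (edgeR adjusted p = 0.0877 and 0.119). SNHG8 passed without vehicle-treated replicate 3 labelled uL3Δ (adjusted p = 0.0436), and SNHG1, at -0.31, without vehicle-treated replicate 1 (adjusted p = 0.0379). The values of the 10 members ran from -0.70 to -0.015, the last turning positive with upper-quartile scaling, with a median of -0.31, where the median over all genes was -0.0074. DESeq2 called 0 members higher and 3 lower, and at an unadjusted p under 0.05 there were 0 higher and 5 lower. All 5 comparisons draw on the same 12 libraries and share groups, so that their values for a gene are not independent of each other.

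**Figure D3:**
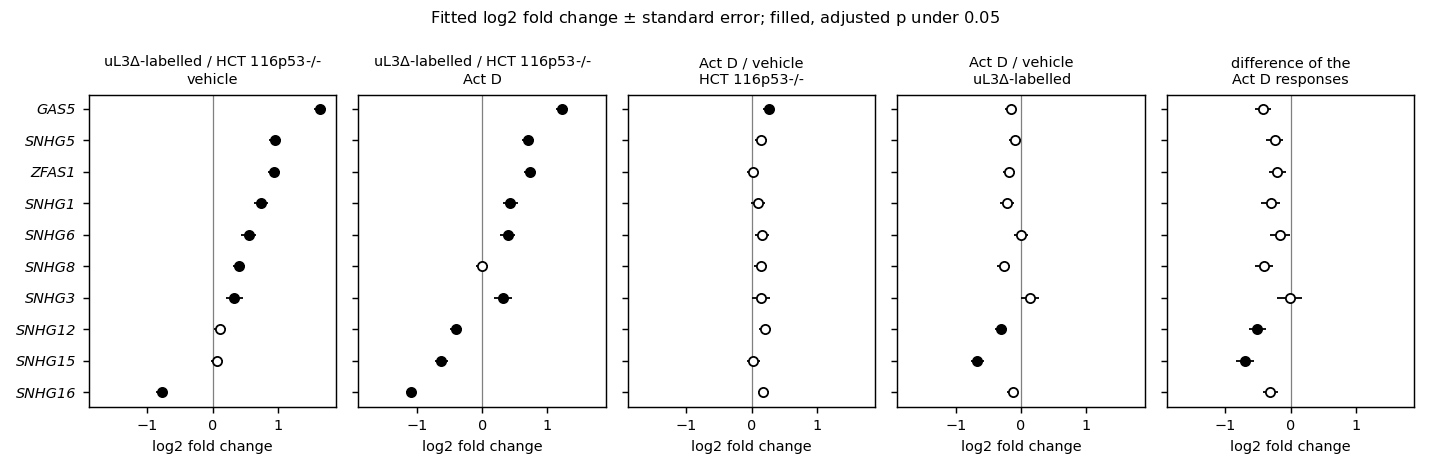
Fitted log2 fold change (x axis) with its standard error for each member in the 5 comparisons, ordered by the difference between lines with vehicle; filled points have an adjusted p under 0.05. The spread from SNHG16 at -0.78 to GAS5 at 1.65 between lines is wider than that of either Act D response, and SNHG12 and SNHG15 carry the filled points of the last 2 panels.

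Several members share their locus with another gene, and these neighbours were read with them. RSEM was run with standard parameters, and the sources used here do not say that strand was used, so that reads of overlapping genes on opposite strands cannot be told apart. SLC3A2, the heavy chain of amino acid transporters, starts 51 bases from SNHG1 on the other strand. It was at 229 ± 3.76 CPM with vehicle in HCT 116p53-/- cells and 465 ± 86.7 CPM in libraries labelled uL3Δ (mean ± SD of 3 libraries), which on the log2 scale is 1.02 beside the 0.74 of SNHG1. Act D lowered SLC3A2 in libraries labelled uL3Δ (-0.49, edgeR adjusted p = 0.00487). ZNFX1, a helicase gene that starts 248 bases from ZFAS1 with overlapping annotated exons on the other strand, was not called in the same direction. It was lower in libraries labelled uL3Δ with vehicle (-0.60) and with Act D (-1.67), where ZFAS1 was higher. Act D raised ZNFX1 in HCT 116p53-/- cells (0.51) and lowered it in the other line (-0.56), an interaction of -1.07 (edgeR adjusted p = 0.00129), while ZFAS1 was called in neither line. ZBTB37, a zinc finger gene that starts 800 bases from GAS5 on the other strand, was lower where GAS5 was higher (-0.75 with vehicle and -0.88 with Act D). PRSS12, a serine protease gene antisense to SNHG8, was 5.84-fold higher with vehicle, at 6.15 ± 0.121 CPM and 35.9 ± 0.810 CPM, and its interaction of -0.51 (edgeR adjusted p = 0.0477) did not hold when any 1 of the 12 libraries was left out (0.053 to 0.105). TRNAU1AP, a selenoprotein synthesis factor with exons overlapping SNHG12 on the other strand, was lower in that line (-1.23 and -1.36) and was called after Act D in neither line. SNHG3 overlaps RCC1, the gene of a chromatin-bound exchange factor, on the same strand and in exons, so that strand would not separate their reads. RCC1 was lower in libraries labelled uL3Δ (-0.69 and -0.66) and after Act D in both lines (-0.42 and -0.39). By counts SNHG3 was higher between the lines, and it was not called after Act D. RSEM's posterior SD for SNHG3, 3.19 to 5.45 counts, was the largest of the members against counts of 636 to 1524. The counts of the 10 members ran from 256 for SNHG15 to 10476 for GAS5. ENSG00000271793 at the SNHG5 locus, which was low, was not called in any comparison.

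The snoRNAs inside these hosts were largely out of reach of the libraries. RefSeq lists 37 snoRNA genes within the 10 loci, 11 of them in GAS5 and 9 in SNHG1. GENCODE v44, matched by gene identifier, lists 24, and all 24 were in the files, but none of them lies in GAS5. For 14 of these, all of at most 91 bases and named as box C/D snoRNAs, RSEM gave an effective length of 0 and no count in any library, so that their lack of counts says nothing of their level. Of the other 10, 1 had no count and 7 had at most 13.8 counts in any library. SNORD44, from an intron of GAS5 (chr1:173865968-173866028, minus strand, hg38, RefSeq coordinates), is printed as an example of the short box C/D snoRNAs whose host RNA the libraries do count, with its C box and D box in capitals.
SNORD44: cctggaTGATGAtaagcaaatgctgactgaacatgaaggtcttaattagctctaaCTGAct
The longer SNORA73A (chr1:28507366-28507571) and SNORA73B (chr1:28508559-28508762), on the plus strand inside SNHG3, were the members' only snoRNAs with enough counts to be tested. They act in the processing of ribosomal RNA and are 93.2% identical (192 of 206 aligned positions), so that they could share reads. RSEM's posterior SD of the count was 2.44 to 4.88 for SNORA73A and at most 0.5 for SNORA73B in the 11 libraries that give one, on 3509.8 to 15293 and 1740.0 to 8377 counts. The ACA box near the 3′ end is in capitals.
SNORA73A: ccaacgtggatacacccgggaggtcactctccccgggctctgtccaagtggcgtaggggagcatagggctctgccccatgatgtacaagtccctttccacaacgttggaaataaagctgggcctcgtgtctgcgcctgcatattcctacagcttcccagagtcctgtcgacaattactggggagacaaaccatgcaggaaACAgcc
SNORA73B: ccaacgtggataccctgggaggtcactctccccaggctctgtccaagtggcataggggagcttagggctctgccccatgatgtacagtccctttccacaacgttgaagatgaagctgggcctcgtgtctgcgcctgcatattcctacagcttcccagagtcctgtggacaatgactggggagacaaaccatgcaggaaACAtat

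SNORA73A had 369, 371 and 406 CPM in vehicle-treated HCT 116p53-/- cells and 521, 765 and 556 CPM in libraries labelled uL3Δ, a log2 fold change of 0.69 (edgeR adjusted p = 0.00117). With Act D the values were 270.2, 332 and 386 CPM and 607, 401 and 641 CPM (0.74, edgeR adjusted p = 0.000657). SNORA73A was thus higher in libraries labelled uL3Δ with either treatment. SNORA73B had 193, 201 and 274 CPM and 299.9, 419 and 257 CPM with vehicle, with overlapping groups (0.55, edgeR adjusted p = 0.0136), and 180.2, 205 and 224 CPM and 306, 199 and 335 CPM with Act D (0.46, edgeR adjusted p = 0.0341). Its call with vehicle was lost without vehicle-treated replicate 1 or 2 of HCT 116p53-/- cells or replicate 2 labelled uL3Δ (adjusted p 0.0567 to 0.121), and its call with Act D without Act D-treated replicate 1 or 2 of HCT 116p53-/- cells or replicate 1 or 3 labelled uL3Δ (0.0672 to 0.228). The SNORA73B call was also lost in 1 of 11 other alternatives with vehicle (adjusted p = 0.166) and in 2 of 11 with Act D (0.0918 and 0.313). Act D changed neither gene in either line at an adjusted p under 0.05, with fitted log2 fold changes of -0.21 and -0.16 for SNORA73A and of -0.13 and -0.22 for SNORA73B, and the interaction was 0.053 for SNORA73A and -0.084 for SNORA73B (edgeR adjusted p = 0.933 and 0.901). For comparison, the host gene SNHG3 had log2 fold changes between lines of 0.33 and 0.32. Counts of so short an RNA depend on the fragment length of each library, since RSEM's effective length for the pair was between 40.01 and 54.51 bases, and they do not separate the mature snoRNA from its precursor.

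**Figure D4:**
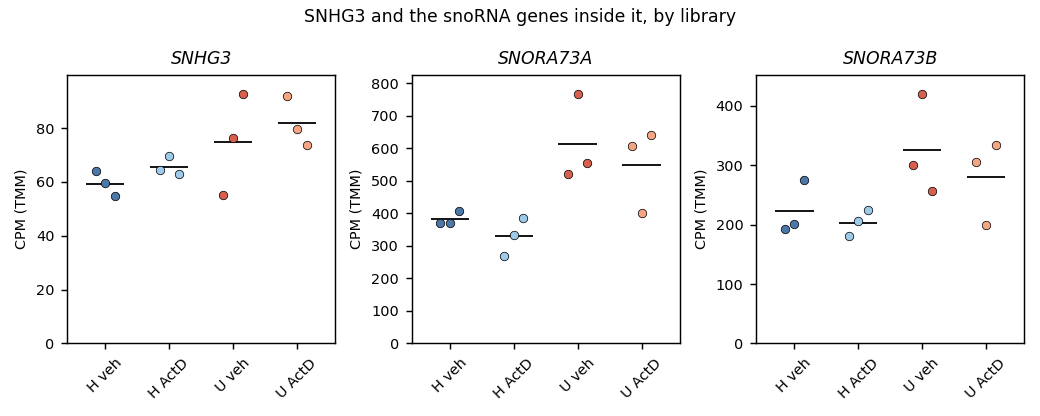
CPM (y axis, from 0) of SNHG3 and of the snoRNA genes SNORA73A and SNORA73B inside it in every library, 3 points per group with a line at the mean and groups named as in the plot of all members. With each treatment every U library of SNORA73A is above every H library, whereas the groups overlap for SNHG3 with vehicle and for SNORA73B.

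In 1 library, HCT 116p53-/- vehicle replicate 2, the deposited values are per transcript, and they show which forms carried the counts there, without a comparison of groups. GAS5 had counts on 24 of its 31 transcripts, and the most abundant, ENST00000450589, held 38.6% of its TPM. SNHG1 spread over 26 of 54 transcripts, with 36.1% in ENST00000539921. SNHG16 was more concentrated, with 53.6% in ENST00000493536, and so was SNHG6, with 55.2% in ENST00000520944. Transcripts annotated as retaining an intron, which GENCODE sets apart from spliced forms, held 94.6% of the TPM of SNHG3, 67.3% of that of SNHG12 and 29.3% of that of GAS5. For SNHG1 this share was 10.3%, for SNHG5 7.36%, for SNHG6 4.08% and for SNHG16 1.64%. SNHG8, SNHG15 and ZFAS1 had none. The leading form of SNHG3, ENST00000447507, took 80.5% of its TPM from 44 of 863 counts, because it is short, so that per-length shares of this gene rest on few reads.

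Other hosts gave a frame for the 10. Of 19 further long non-coding hosts, 18 were tested, and 10 higher and 5 lower were called in libraries labelled uL3Δ with vehicle (median log2 fold change 0.36) and 9 higher and 5 lower with Act D (0.15). These are 55.6% higher and 27.8% lower with vehicle and 50% and 27.8% with Act D. All genes tested had 35.1% and 36.2%, then 35.1% and 35.3%. SNHG14, a very long host in an imprinted region, had by far the largest log2 fold changes, 4.32 and 4.06, and SNHG29 (0.99 and 0.81), SNHG10 (1.47 with vehicle) and SNHG32 (0.90 with Act D) were higher too. SNHG20 (-1.36 and -2.03), SNHG25 (-1.86 and -2.68) and SNHG26 (-0.99 and -1.52) were lower. Act D raised 4 and lowered 0 of the 18 in HCT 116p53-/- cells, SNHG11 by 0.82, SNHG10 by 0.58 and SNHG14 by 0.43 among them. It raised 0 and lowered 2 in the other line, SNHG26 (-0.79) and SNHG7 (-0.44). These calls are 22.2% raised in HCT 116p53-/- cells and 11.1% lowered in libraries labelled uL3Δ. Over all genes tested Act D raised 7.59% and lowered 11.1% in HCT 116p53-/- cells and raised 3.51% and lowered 8.4% in the other line. The interaction called 0 of 18, with 0 higher and 5 lower at an unadjusted p under 0.05, 0 by DESeq2 and a median of -0.29. Over all genes tested it called 3.3% higher and 3.23% lower. Of 43 protein-coding hosts, 27 higher and 8 lower were called with vehicle (median 0.38) and 22 higher and 8 lower with Act D (0.26). That is 62.8% and 18.6% of the list with vehicle and 51.2% and 18.6% with Act D. The translation initiation helicase EIF4A2 (1.39 and 1.19) and the ribosomal protein genes RPL37 (1.35 and 1.28) and RPL27A (1.40 and 1.32) were higher, whereas NOP56, a box C/D snoRNP core protein (-0.88 and -0.87), and the splicing factor SF3B3 (-0.44 and -0.75) were lower with both treatments. CNOT1, the scaffold of a deadenylase complex, was lower with vehicle (-0.61) and PPAN, a ribosome assembly factor, with Act D (-1.32). Act D itself called 2 higher and 0 lower in HCT 116p53-/- cells, RPS2 (0.29) and TAF1D (0.27), with 7 higher and 1 lower at an unadjusted p under 0.05 and 5 higher and 1 lower by DESeq2. In the libraries labelled uL3Δ it called 1 higher, the nucleolar protein NCL (0.28), and 5 lower, led by PPAN (-0.93), WDR43 (-0.48) and IPO7 (-0.40). Of the 43, these are 4.65% higher in HCT 116p53-/- cells, and 2.33% higher and 11.6% lower in libraries labelled uL3Δ. The interaction called 0 higher and 3 lower (6.98% of the list), EIF5, PPAN and WDR43. Of the calls after Act D named in this paragraph, those of SNHG7, SNHG10, SNHG14, SNHG26, RPS2, TAF1D and NCL were lost when single libraries were left out, with adjusted p up to 0.0503, 0.0898, 0.0797, 0.0728, 0.166, 0.194 and 0.199.

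**Figure D5:**
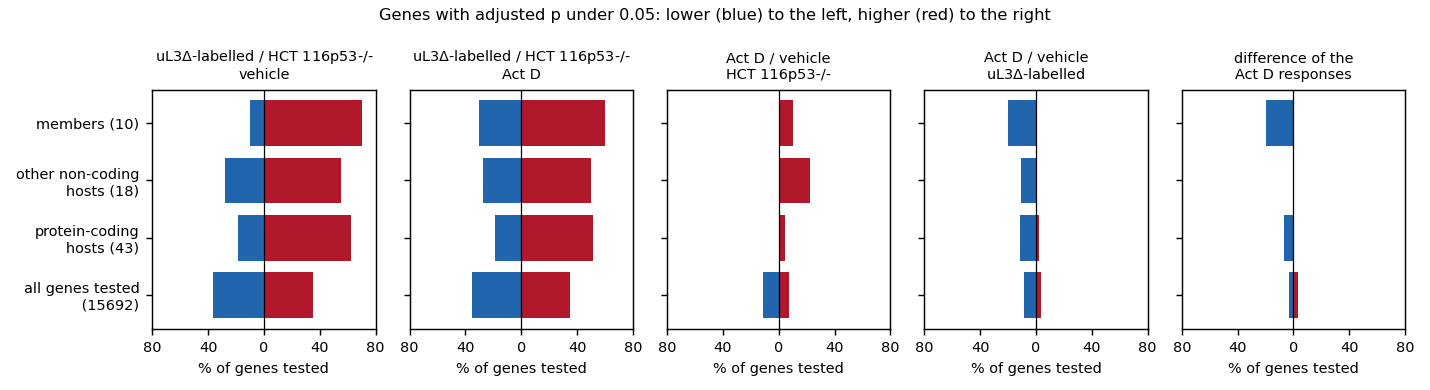
Share of the genes tested in each list (x axis, percent) that were higher (red, to the right) or lower (blue, to the left) at an adjusted p under 0.05, for the 10 members, the other non-coding hosts, the protein-coding hosts and all genes, in the 5 comparisons. In both comparisons of the lines the red bars of the 3 host lists are longer than that of all genes.

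The machinery that acts on host transcripts was read from lists of its own. Among 20 factors of nonsense-mediated decay, 7 higher and 7 lower were called in libraries labelled uL3Δ with vehicle and 7 higher and 8 lower with Act D. These shares, 35% and 35% with vehicle and 35% and 40% with Act D, were close to those of all genes tested (35.1% and 36.2%, then 35.1% and 35.3%), so the counts say nothing particular to the list, and its genes are given as values. RBM8A, a subunit of the exon junction complex, was higher with both treatments (0.85 and 0.65), and so were the release factor ETF1 (0.69) and SMG5 (0.71) with vehicle and NBAS (0.92) and UPF3B (1.03) with Act D. DHX34 (-0.94 and -1.43), SMG6 (-0.94) and the kinase SMG1 (-0.80) were lower, as were the central helicase UPF1 (-1.26) and the exon junction helicase EIF4A3 (-0.84) with Act D. Act D called 4 higher and 3 lower in HCT 116p53-/- cells, with EIF4A3 (0.52), SMG8 (0.51) and RBM8A (0.30) higher and SMG6 (-0.62), UPF2 (-0.31) and NBAS (-0.32) lower. In the libraries labelled uL3Δ it called 1 higher and 6 lower, SMG8 (0.35) against DHX34 (-0.78), SMG5 (-0.60), ETF1 (-0.42) and others. The shares were 20% higher and 15% lower in HCT 116p53-/- cells, against 7.59% and 11.1% of all genes tested. In libraries labelled uL3Δ they were 5% and 30%, against 3.51% and 8.4%. The interaction was negative for UPF1 (-0.92, edgeR adjusted p = 0.00294), ETF1 (-0.44), EIF4A3 (-0.43) and 1 more, and positive for 0. That is 20% lower, against 3.23% of all genes tested. Of 7 coding transcripts known as substrates of this decay, 7 were higher with vehicle in libraries labelled uL3Δ and 6 with Act D, with GADD45B (2.59 and 1.81) and the stress factor ATF3 (2.25 and 1.35) among them, and 0 were lower. That is 100% and 85.7% higher, where all genes tested had 35.1% in both comparisons. Act D raised GADD45A (1.14), GADD45B (1.06) and ATF3 (1.33) in HCT 116p53-/- cells and lowered ATF4 there (-0.26). In the other line it lowered ATF4 (-0.40) and TBL2 (-0.36). Of the 7, Act D raised 42.9% and lowered 14.3% in HCT 116p53-/- cells, and raised 0% and lowered 28.6% in the other line. The interaction called 3 of the 7 (42.9%, against 3.23% lower over all genes tested), all negative, GADD45A (-1.20), GADD45B (-0.79) and ATF3 (-0.90). Leaving out single libraries ended the Act D calls of RBM8A (adjusted p up to 0.0805), UPF2 (0.171), NBAS (0.148) and ATF4 (0.135) in HCT 116p53-/- cells, those of SMG8 (0.261) and TBL2 (0.0678) in the other line, and the interactions of ETF1 (0.0707) and EIF4A3 (0.0972).

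Among 18 core and assembly proteins of snoRNPs, the particles in which snoRNAs work, 6 higher and 6 lower were called in libraries labelled uL3Δ with vehicle and 5 higher and 7 lower with Act D. With vehicle that is 33.3% in each direction, and with Act D 27.8% and 38.9%, again close to the shares of all genes. NOLC1 (0.90 and 0.94), PIH1D1 (0.77 and 0.58) and RPAP3 (0.75 and 0.50) were higher, and the H/ACA assembly factor SHQ1 (-1.08 and -1.19), NUFIP1 (-0.79) and the pseudouridine synthase DKC1 (-0.87) lower. Act D called NOLC1 higher (0.29) and NUFIP1 lower (-0.35) in HCT 116p53-/- cells and NOLC1 higher (0.32) in the other line. The interaction called 0 of these 18, with 0 higher and 1 lower at an unadjusted p under 0.05 and 0 by DESeq2. Over all genes tested it called 3.3% higher and 3.23% lower. Of 10 regulators of TOP transcripts, 3 higher and 5 lower were called with vehicle and 3 higher and 3 lower with Act D. That is 30% and 50%, then 30% and 30%, where all genes tested had 35.1% and 36.2%, then 35.1% and 35.3%. CNBP (1.04 and 0.75), EIF4EBP1 (0.95 and 0.92), LARP1 (0.40) and EIF4EBP2 (0.30) were higher, whereas MTOR (-1.14 and -0.81), LARP4 (-0.47 and -0.53) and RPTOR (-1.47 and -0.37), the mTOR complex 1 subunit that binds its substrates, were lower. After Act D, RPTOR was lower by 2.05 on the log2 scale in HCT 116p53-/- cells and by 0.95 in libraries labelled uL3Δ, LARP4B by 1.06 and 1.11, LARP1B by 0.59 in the first line and LARP1, which binds the TOP start, by 0.40 in the second. EIF4EBP2 was higher in both (0.28 and 0.38). The interaction called RPTOR higher (1.10) and 0 lower. Single libraries decided the calls of NOLC1, EIF4EBP2 and NUFIP1 after Act D in HCT 116p53-/- cells (adjusted p up to 0.120, 0.156 and 0.0897 without one of them), of NOLC1, EIF4EBP2 and LARP1 in the other line (0.300, 0.0569 and 0.0587), and of RPTOR and EIF4EBP2 between the lines with Act D (0.161 and 0.0573).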

How the data were processed

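RNA-seq of 12 libraries was analysed. Per the labels and the study's methods, total RNA went through a TruSeq kit and paired-end NovaSeq sequencing, and reads were trimmed, cleared of ribosomal and PhiX sequence and quantified with RSEM 1.2.25 at standard parameters on Ensembl transcripts of hg38. The Ensembl release and the use of strand are not given in the sources used here. The files hold deposited RSEM expected counts, rounded here to whole numbers, and the authors' TPM, with isoform percent per transcript deposited for HCT 116p53-/- vehicle replicate 2, whose transcripts were summed by gene. The total of a library is the sum of its expected counts, and precision was taken from the spread between replicates.

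Genes were filtered with filterByExpr, scaled with TMM and fitted with edgeR 4.0.16 (R 4.3.3) quasi-likelihood over all 12 libraries, with Benjamini-Hochberg adjustment over 15692 genes and an adjusted p under 0.05 as a call. The code was tested on simulated data. Alternatives were DESeq2 1.42.0, the likelihood-ratio test, other scalings and filters, posterior mean counts, only the groups compared, a replicate block, a size threshold, each library left out and, chosen after seeing the data, the fit without RN7S, RMRP, RPPH1 and mitochondrial genes. Each member is reported in every comparison. Other lists are given by counts and by up to 3 called genes with the smallest p per comparison and direction, not all of them named, and neighbours by a start within 1000 bases or overlapping exons. Some genes that these rules cover are not reported here. The members and lists were chosen with earlier results of these data known. Locations and snoRNA genes come from GENCODE v44, which matched 60261 of the 60617 gene identifiers, and from RefSeq. No column of another sample was present.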

Additional observations from a re-analysis of the deposited data

Results flagged for a closer look

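The response to Act D differed between the lines, by the interaction term of the edgeR quasi-likelihood fit with Benjamini-Hochberg adjustment, for 2 of the 10 host genes: SNHG15 by -0.70 on the log2 scale (adjusted p = 0.00609) and SNHG12 by -0.51 (adjusted p = 0.0266). Over all genes tested the interaction called 3.23% lower and 3.3% higher. SNHG15 kept its call in all 22 alternatives, and SNHG12 lost its call with the replicate block and without each of 4 single libraries, named in the report. No library was removed as outlying. Replicates were compared over all genes by a chi-square per degree of freedom, larger where replicates differ more. For Act D-treated replicate 1 labelled uL3Δ it was 95.3 and 55.9 against replicates 2 and 3, and it was 11.8 between those. Pairs in the other groups ran from 6.59 to 49.3. The interaction calls of SNHG15 and SNHG12 were kept when that replicate 1 was left out.

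Among the other genes read beside them, the interaction was negative for the protein-coding hosts PPAN (-0.82, adjusted p = 0.00854), EIF5 (-0.69, 0.007) and WDR43 (-0.49, 0.0349). The decay factors UPF1 (-0.92, 0.00294), ETF1 (-0.44, 0.0221) and EIF4A3 (-0.43, 0.0322) were also negative by the same test. So were the decay substrates GADD45A (-1.20, 0.000145), ATF3 (-0.90, 0.0181) and GADD45B (-0.79, 0.00408). The neighbours ZNFX1 (-1.07, 0.00129) and PRSS12 (-0.51, 0.0477) and the markers TGFBI (-1.79, 1.48e-05) and CLDN4 (-1.01, 0.00346) were negative too. RPTOR stood alone with a positive value among these genes (1.10, 0.00452). The calls of PRSS12 (all 12 libraries), WDR43 (8 of 12), EIF4A3 (5 of 12) and ETF1 (4 of 12) were lost when single libraries were left out.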

How the results depend on the processing

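The counts of host genes called, of 10 and in either direction, were 1 and 2 after Act D (HCT 116p53-/- cells and libraries labelled uL3Δ), 8 and 9 between the lines (vehicle and Act D) and 2 for the interaction. Over all genes tested, the shares higher and lower after Act D were 7.59% and 11.1%, then 3.51% and 8.4%. Between the lines they were 35.1% and 36.2%, then 35.1% and 35.3%, and for the interaction 3.3% and 3.23%. In HCT 116p53-/- cells the count after Act D became 0 with scaling by library size alone, with no filter, with the replicate block and with a log2 fold change of at least 0.5 required. In the libraries labelled uL3Δ it became 1 with the replicate block, with upper-quartile scaling and with the size threshold. Between the lines with Act D the size threshold left 5. The interaction count became 1 with the replicate block. Leaving out single libraries gave 0 to 1, 1 to 3 and 1 to 4 for the 2 Act D comparisons and the interaction, and moved neither count between the lines by over 1.5 times.

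Some uncalled log2 fold changes changed sign. With scaling by library size alone they were -0.0075 for SNHG1, -0.076 for SNHG15 and -0.085 for ZFAS1 after Act D in HCT 116p53-/- cells, and -0.12 for SNHG12 and -0.17 for SNHG15 between the lines with vehicle. With upper-quartile scaling they were 0.013 for SNHG3 (interaction) and 0.059 for SNHG6 (Act D, libraries labelled uL3Δ). SNHG8 between the lines with Act D was 0.0053 with only the groups compared, 0.00052 with posterior mean counts and 0.0026 without RN7S, RMRP, RPPH1 and mitochondrial genes, and -0.076 to 0.042 leaving out single libraries. The other leave-one-out ranges across 0 were, after Act D in HCT 116p53-/- cells, -0.035 to 0.079 for SNHG15, -0.043 to 0.071 for ZFAS1 and -0.23 to 0.042 for SNORA73B. After Act D in libraries labelled uL3Δ they were -0.044 to 0.31 for SNHG3, -0.12 to 0.071 for SNHG6, -0.32 to 0.027 for SNORA73A and -0.40 to 0.0049 for SNORA73B. For the interaction they were -0.19 to 0.16 for SNHG3, -0.11 to 0.24 for SNORA73A and -0.27 to 0.14 for SNORA73B. The cause was not tested.

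Scaling by library size alone moved the median of all genes by -0.24 between the lines and by -0.099 after Act D. It changed the split of all calls from 5501 higher and 5684 lower to 4202 and 6974 with vehicle, from 5503 and 5540 to 4244 and 6825 with Act D, from 1191 and 1748 to 551 and 2309 after Act D in HCT 116p53-/- cells and from 551 and 1318 to 227 and 1858 after it in libraries labelled uL3Δ. Upper-quartile scaling gave 944 and 1012 for the last of these, and no filter gave 544 and 826 for the interaction, against 518 and 507. The replicate numbers did not pair the libraries: over 18 same-numbered pairs the correlation of deviations from the group means was -0.104 to 0.101, and the replicate block was run as an alternative. The hosts had at least 256 counts in every library, whereas most snoRNAs inside them are too short for these libraries to count. The block also ended the calls of SNHG3 between the lines (adjusted p = 0.0551 with vehicle and 0.0631 with Act D).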
